A study of Homo sapiens with 20 samples.

Results

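Open chromatin regions that list more than 1 gene were examined in HL60 cells, a promyelocytic acute myeloid leukemia line. Members were the rows of the deposited ATACseq files that named 2 or more genes and lay on chromosomes 1, 2, 3, 4, 7, 9, 10, 11, 12, 14 or 16 to 22. There were 1345 of them among 8286 regions, beside 2417 regions that listed 1 gene on the same chromosomes. On these 17 autosomes the median RNA log2 fold change of HK3-null over Cas9 control in DMSO lay between -0.11 and 0.07 per chromosome, while on the other 5 autosomes it ranged from -0.94 to 1.10.

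Cells labelled HK3-null, edited with CRISPR against the hexokinase HK3, were compared with Cas9 expressing control cells, each treated for 36 h with 1 µM all-trans retinoic acid (ATRA, which drives differentiation of this line) or with 0.01% DMSO. ATACseq, which counts fragments released by a transposase from accessible DNA, was done on 2 libraries of each of the 4 groups, and RNAseq on 3. All HK3-null libraries carried 1 knockout name, so differences between the genotypes are differences between a knockout line and a control line, and clone and edit cannot be told apart. HK3 RNA stood at 344, 302 and 346 normalized counts in HK3-null and at 90, 65 and 105 in Cas9 control libraries in DMSO (log2 fold change 1.96, adjusted p = 1.11e-05 in limma), so the RNA level of HK3 was no check of the edit, and the genotypes are used as labelled.

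Neighbouring genes can share open chromatin in several ways. Where a pair of genes is transcribed outwards from nearby start sites, a single nucleosome-free stretch can serve as promoter for both, and in other places a region inside or beyond a gene may act as an enhancer on one neighbour, on several or on none. Listing a gene with a region records closeness only. Zinc finger genes of chromosome 19, HOX genes and immune gene families lie in clusters, so such regions often list members of 1 family together.

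Of the members, 953 listed 2 genes, 271 listed 3 and 121 listed 4 or more, with at most 17. They spanned 200 to 2332 bp with a median of 463 bp, and 97.9% of 2810 region and gene pairs with RefSeq coordinates lay within 10 kb of each other. The centre fell in an exon in 358 members, in an intron in 683 and between genes in 304. A promoter of a listed gene, taken as 250 bases before to 50 after a RefSeq start site, overlapped 212 members, or 15.8%, against 7.57% of the regions listing 1 gene. No start site was used here for 1118 of the listed genes, so 793 of the 1133 members counted as without a listed promoter list at least 1 gene whose promoter was not placed. In 31 members the promoters of listed genes on opposite strands overlapped the same region.

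The sequences below are GRCh38 stretches inside 7 member regions, shown because the RNA of their genes separates the cases described further on. The first 3 lie between the start sites of genes that point away from each other and whose RNA moved together, and the other 4 are 150 bases that end 50 bases before the start site of the only listed gene whose promoter the region holds. Capitals mark matches on either strand to GGGCGG (the box bound by SP and KLF factors), CCAAT or its reverse complement ATTGG (the CCAAT box), and GGAAGT (an ETS core), and adjacent matches run into each other.
between TP53TG1 and CROT, chr7:87345493-87345663, plus strand: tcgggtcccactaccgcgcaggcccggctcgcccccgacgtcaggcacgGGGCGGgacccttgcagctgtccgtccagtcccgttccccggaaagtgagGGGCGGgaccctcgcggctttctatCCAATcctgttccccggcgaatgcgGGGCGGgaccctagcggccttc
between ZNF829 and ZNF568, chr19:36916292-36916331, plus strand: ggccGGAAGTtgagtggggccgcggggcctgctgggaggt
between ZNF528-AS1 and ZNF528, chr19:52397758-52397848, plus strand: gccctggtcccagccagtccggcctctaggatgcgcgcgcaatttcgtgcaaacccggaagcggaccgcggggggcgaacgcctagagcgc
before SLC2A8, chr9:127396969-127397118, plus strand: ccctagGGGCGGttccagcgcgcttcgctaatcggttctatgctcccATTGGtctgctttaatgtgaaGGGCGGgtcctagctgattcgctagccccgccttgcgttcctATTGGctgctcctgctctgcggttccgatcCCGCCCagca
before ZNF555, chr19:2841275-2841424, plus strand: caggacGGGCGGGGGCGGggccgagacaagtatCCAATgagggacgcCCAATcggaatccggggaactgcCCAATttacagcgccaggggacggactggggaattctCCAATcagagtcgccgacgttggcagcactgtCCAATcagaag
before CIART, chr1:150282354-150282503, plus strand: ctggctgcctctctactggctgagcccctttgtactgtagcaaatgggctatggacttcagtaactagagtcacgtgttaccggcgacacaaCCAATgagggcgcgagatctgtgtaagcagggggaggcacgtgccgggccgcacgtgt
before HAAO, chr2:42792634-42792783, minus strand: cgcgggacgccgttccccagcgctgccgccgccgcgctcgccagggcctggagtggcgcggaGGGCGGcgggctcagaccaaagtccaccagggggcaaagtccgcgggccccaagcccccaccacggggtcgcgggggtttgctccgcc

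The stretch between TP53TG1 and CROT held GGGCGG 3 times and CCAAT 1 time in 171 bases, a length at which 38.3% and 25.4% of 34943 RefSeq promoter windows held these letters. The 40 bases between ZNF829 and ZNF568 held GGAAGT 1 time, found in 5.0% of windows of that length, and none of the 8 motifs searched (those 3 with AGGTCA and TGANTCA, described further on, and TGTGGTT of RUNX factors, GCGCATG of NRF1 and AAGATGG of YY1) was in the 91 bases between ZNF528-AS1 and ZNF528. The window before ZNF555 held CCAAT 5 times and GGGCGG 2 times, and that before SLC2A8 held GGGCGG 3 times and CCAAT 2 times. The window before CIART held CCAAT 1 time and that before HAAO held GGGCGG 1 time. Among all promoter windows of 150 bases at that distance, 31.4% held GGGCGG and 23.2% held CCAAT. These letter matches are descriptions of the windows and not evidence of binding.

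The lowest fold change of any deposited region in the ATRA libraries, comparing the genotypes, was 1.65, so this contrast took part in choosing the rows, and the members' values in it are a description. In ATRA 764 members had the higher signal in HK3-null and 581 the lower, with a median fold of 4.06. In the separate DMSO libraries 1319 members had the same sign in DMSO and 26 the opposite one. The share over all deposited regions is not given here, so these counts are not read as particular to the members. The median log2 difference in DMSO was 1.35 for members higher in ATRA and -1.92 for those lower in ATRA.

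In DMSO, 1088 members passed the filter on mean signal, and 474 of them were called higher and 457 lower in HK3-null (limma on log2(signal + 1), adjusted p under 0.05 and a fold of at least 1.5). Among all 6214 regions tested, 42.7% were called higher and 43.9% lower, and the members stood at 43.6% and 42%, near that background. Members with a promoter of a listed gene leaned upwards. Regions listing 1 gene that held its promoter leaned the same way, with 74 called higher and 58 lower. Among those with a promoter of 1 gene, or of 2 genes on 1 strand, 87 were higher and 50 lower of 143 tested, and among those with promoters on opposite strands 17 were higher and 9 lower of 26. Members without a listed promoter split 370 higher to 398 lower of 919. By chromosome the split ran from 71 higher and 38 lower on chromosome 19 to 23 higher and 45 lower on chromosome 17.

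Among the called members the largest rise was in an intron of the imprinted zinc finger gene PEG3, at chr19:56838726-56840012 in a region listing ZIM2, PEG3 and MIMT1. Its signal was 1.87 and 2.33 in Cas9 control and 456 and 431 in HK3-null DMSO libraries, a log2 difference of 7.17 ± 0.33 (SE, n = 2 per group, adjusted p = 1.21e-19). The HK3-null ATRA libraries stood at 325 and 437 against 2.11 and 2.58. PEG3 RNA was at 3, 0 and 0 normalized counts in Cas9 control and 148, 141 and 171 in HK3-null in DMSO (adjusted p = 0.000731), so region and gene were near the floor in the control line under both treatments.

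A like step was seen at the promoters of 4 other genes that regulate transcription. The region at chr19:2840964-2841701, between ZNF554 and ZNF555, read 1.0 and 2.81 in Cas9 control and 241 and 238 in HK3-null DMSO libraries (log2 difference 6.45 ± 0.37, adjusted p = 9.09e-17). The region before TLE1, a corepressor, at chr9:81689194-81690137 read 1.92 and 1.44 against 198 and 191 (6.19 ± 0.36, adjusted p = 1.24e-16). The regions before ZNF57 and ZNF132 gave log2 differences of 6.0 ± 0.35 and 5.55 ± 0.33. TLE1 RNA was 19, 0 and 1 against 205, 162 and 135 normalized counts (adjusted p = 0.00984, and 0.0501 without the filter on low values), and ZNF57 was 1, 0 and 0 against 187, 207 and 187. Lack of overlap between the genotypes was a condition for naming the largest rises, and the genotype difference in ATRA took part in choosing the rows. Within a genotype the ATRA and DMSO libraries lay close together, with log2 differences for ATRA between -0.16 and 0.34 in these 4 regions.

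In the region at chr16:68237385-68238097, in an intron of the splicing regulator gene ESRP2, no promoter of a listed gene was placed, and its signal rose from 4.5 and 5.33 to 371 and 362 (5.96 ± 0.33, adjusted p = 6.67e-17). Its neighbours did not share that size of change. ESRP2 RNA was at 0, 1 and 1 and at 1, 1 and 0 normalized counts and was not tested, the transcription factor gene NFATC3 had a log2 fold change of 0.32 ± 0.06, and PLA2G15, which encodes a lysosomal phospholipase, had 1.0 ± 0.10 (adjusted p = 7.79e-06, n = 3 per group).

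Among the falls, the region at chr9:127396587-127397369 held the promoter of SLC2A8, an intracellular glucose transporter, and lay between it and GARNL3. It read 337 and 343 in Cas9 control and 3.04 and 3.6 in HK3-null DMSO libraries, a log2 difference of -6.31 ± 0.33 (adjusted p = 1.05e-17). The region before MORN4 at chr10:97633113-97633808 fell from 73.9 and 73.6 to 1.62 and 1.4 (-4.90 ± 0.43). On chromosome 7, a region of the T cell receptor beta locus listing TRB, TRBV27 and TRBV28 fell from 129 and 163 to 2.47 and 5.73, and on chromosome 19 the region holding the ZNF20 promoter fell from 116 and 113 to 1.0 and 4.41. A region in an intron shared by KANK1 and DOCK8-AS2, listing DOCK8 and KANK1, fell from 46.9 and 47.4 to 0 in both HK3-null libraries. DOCK8 RNA differed by -0.35 ± 0.11 and KANK1 RNA by -0.21 ± 0.16 on the log2 scale there, both under the fold needed for a call.

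**Figure D1:**
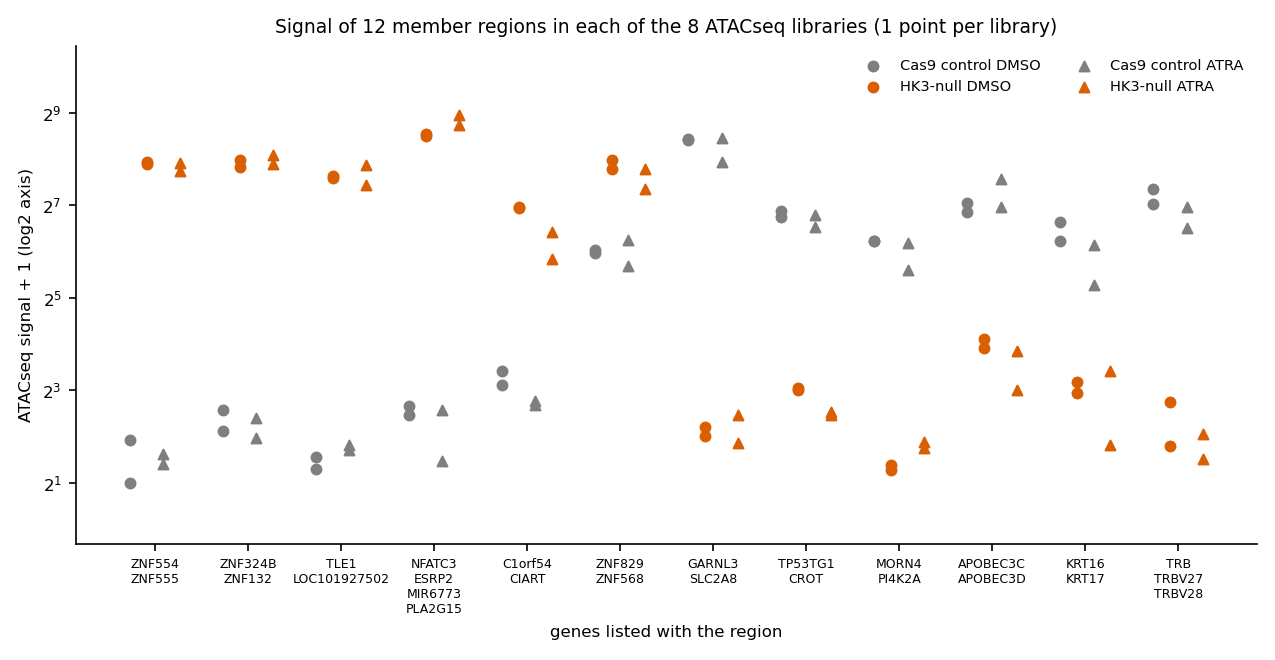
ATACseq signal + 1 on a log2 axis for 12 named member regions, with 1 point per library and groups defined by colour (genotype) and shape (treatment). In each region the 4 HK3-null points lie on one side of the 4 Cas9 control points, for example 238 and 241 against 1.0 and 2.81 in DMSO at ZNF554 and ZNF555. For the largest rises and falls this lack of overlap was a condition for being named.

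RNA of the listed genes was read next. The members listed 2727 different genes, of which 2108 had an RNA value and 1224 were expressed enough to be tested. In DMSO 226 of these were higher and 142 lower in HK3-null (adjusted p under 0.05 and a fold of at least 2), or 18.5% and 11.6%, where 11.1% and 8.21% of all 13256 genes were called higher and lower. In ATRA 229 were higher and 158 lower, where 11.4% and 9.93% of all genes were called. The listed genes were called more often than all genes in both directions, and no test of this excess was made. These are bulk libraries, in which fewer cells of a type and less RNA per cell cannot be told apart.

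**Figure D2:**
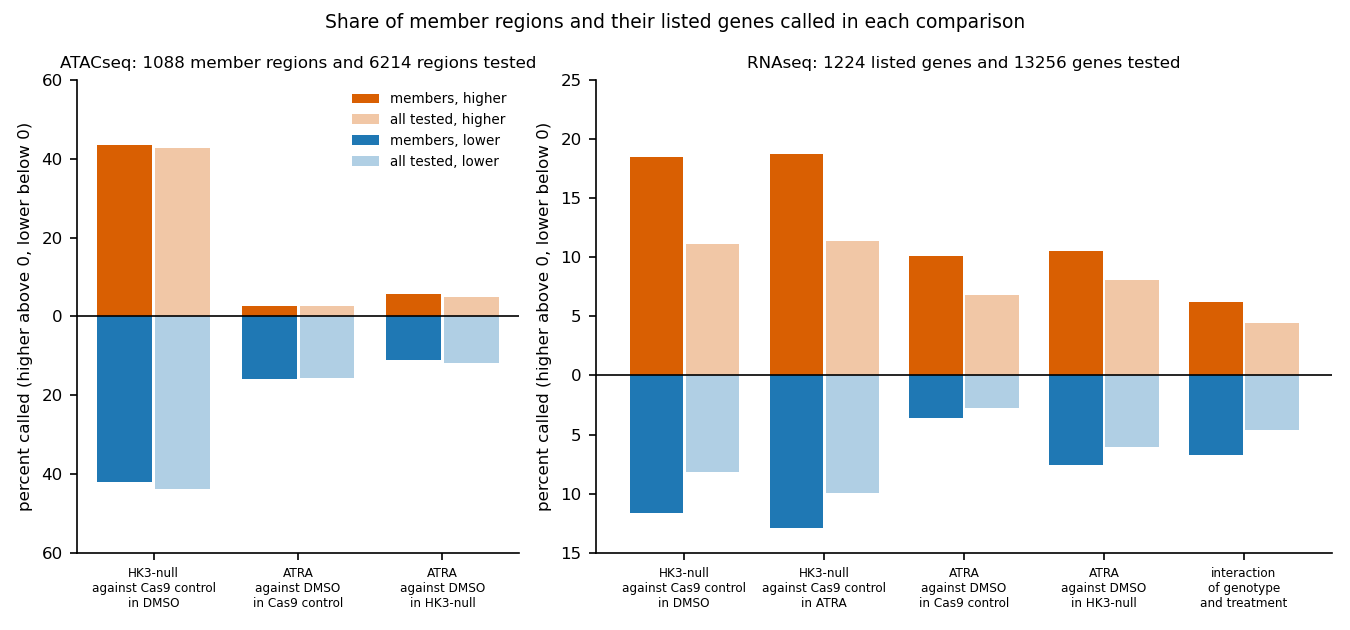
Percent of member regions (left) and of their listed genes (right) called higher (above 0) or lower (below 0) in each comparison, beside the percent of all tested regions or genes in pale bars. For regions the pairs of bars are alike (43.6% against 42.7% higher in DMSO), while for genes the member bars are taller (18.5% against 11.1%).

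Where a called region held the promoter of a listed gene, that gene mostly moved with the region. In the 104 promoter members called higher, 57 of 75 tested promoter genes rose and 1 fell (76.0% in the direction of the region), against 12 that rose and 3 that fell of 52 other genes listed with the same regions (23.1%). In the 59 promoter members called lower, 22 of 37 promoter genes fell and 0 rose (59.5%, limma, n = 3 per group), against 6 that fell and 5 that rose of 40 other listed genes (15.0%). The median RNA log2 fold change, on normalized count + 1, was 2.50 for the promoter genes of higher regions and 0.17 for their neighbours, and -1.71 and -0.18 for lower regions. The tested genes were 75 of 121 promoter genes of higher regions and 37 of 67 of lower ones. The RNA filter asks for expression in at least 1 group, so a gene silent in Cas9 control, such as ZNF57, passed only through HK3-null. The direction of such genes was fixed by the filter, and the shares were not recomputed without them.

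The separate ATRA RNA libraries, read for the same genes under the same filter, gave a like split. There 52 of the 75 promoter genes of higher regions were higher in HK3-null and 0 lower (69.3%), and 25 of the 37 of lower regions were lower and 0 higher (67.6%). Among genes of called members counted as without a listed promoter, 85 were higher and 16 lower of 403 for higher regions and 66 lower and 22 higher of 355 for lower regions in DMSO. With only members whose genes all had a start site, a setting chosen after seeing the data, the shares in the direction of the region were 15.3% of 176 and 15.5% of 116 genes, and among the other listed genes of promoter members with a start site 16.7% of 42 and 9.09% of 33. Regions that list 1 gene gave similar counts, with 41 of 53 promoter genes higher for higher regions and 27 of 41 lower for lower regions. Distance to the start site was not varied within these groups, and its part was not tested.

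**Figure D3:**
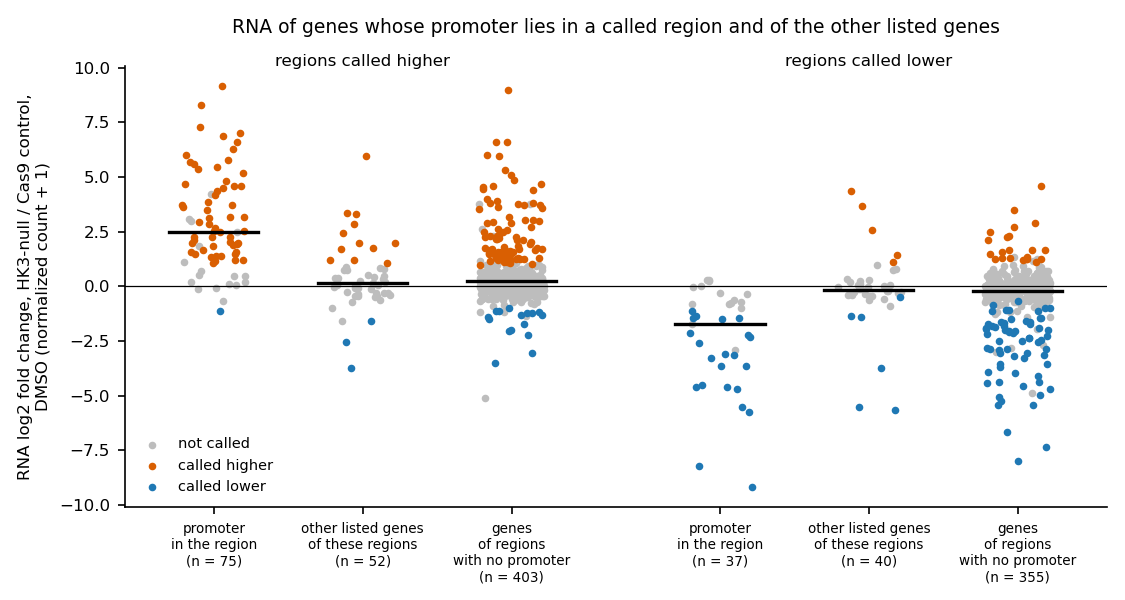
RNA log2 fold change of HK3-null over Cas9 control in DMSO (normalized count + 1) for each tested gene, grouped by the direction of its region and by whether its promoter lies in it, with black bars at the medians and colours for the calls. Promoter genes sit at medians of 2.50 and -1.71, and the other listed genes near 0.

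Whole regions were then sorted by what their genes did. Of the 474 members called higher in DMSO, 153 had all their called genes higher, 15 had them lower, 5 had both, 202 had tested genes but no call and 99 had no tested gene. Of the 457 called lower, 113 had all called genes lower, 27 had them higher, 2 had both, 178 had no call and 137 no tested gene.

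To ask whether listed neighbours change together, 403 members with at least 2 tested genes were sorted by their calls. In DMSO all tested genes were higher in 20 members and lower in 13, at least 2 were called in 1 direction beside uncalled ones in 18, and genes were called in opposite directions in 9. In 128 members 1 gene was called and in 215 none. The ATRA genotype comparison gave 20 all higher, 15 all lower and 7 in opposite directions. Most members with a called gene therefore had a single called neighbour.

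Pair by pair, 621 pairs of tested genes shared a member region, and in DMSO 62.6% of them had log2 fold changes of the same sign. Among 9753 adjacent tested genes of the same chromosomes that no member lists together the share was 54%, and among the 5204 of these at most 20 kb apart it was 54.7%. Both genes were called in 56 listed pairs (9.02%), 46 in the same direction and 10 in opposite ones. This compares with 97 of the near unlisted pairs (1.86%), of which 78 moved in the same direction. A single gene was called in 179 of the 621 listed pairs and in 1056 of the 5204 near unlisted ones. Calls were thus more frequent among genes of listed pairs, and the excess of double calls was not separated from this. Without a filter on low values the same-sign share of listed pairs was 51.5%. Pairs that share a gene or a region are not independent, and no test over pairs was made.

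Pairs were also sorted by the arrangement of their genes. Of 57 pairs placed head to head, with start sites facing away from each other, 68.4% had the same sign and 7 were both called, 6 of them in the same direction. Of 82 tail-to-tail pairs 57.3% had the same sign and 1 was called for both genes, in opposite directions. Pairs on 1 strand stood at 62.3% (n = 154) and overlapping pairs at 53.8% (n = 91), and 237 pairs in which a gene had no strand here stood at 66.7%, close to the head-to-head share. In ATRA the shares were 63.2% head to head, 59.8% tail to tail and 66.9% on 1 strand, so their order was not the same. Among near unlisted pairs in DMSO they were 55.6%, 50.8% and 53%. Pairs of 1 gene family had the same sign in 69.6% of 46, and all 13 family pairs with both genes called moved in the same direction, beside 33 of 43 called pairs of unlike names. Reads of near-identical family members can be shared between them, so these family pairs are less certain.

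**Figure D4:**
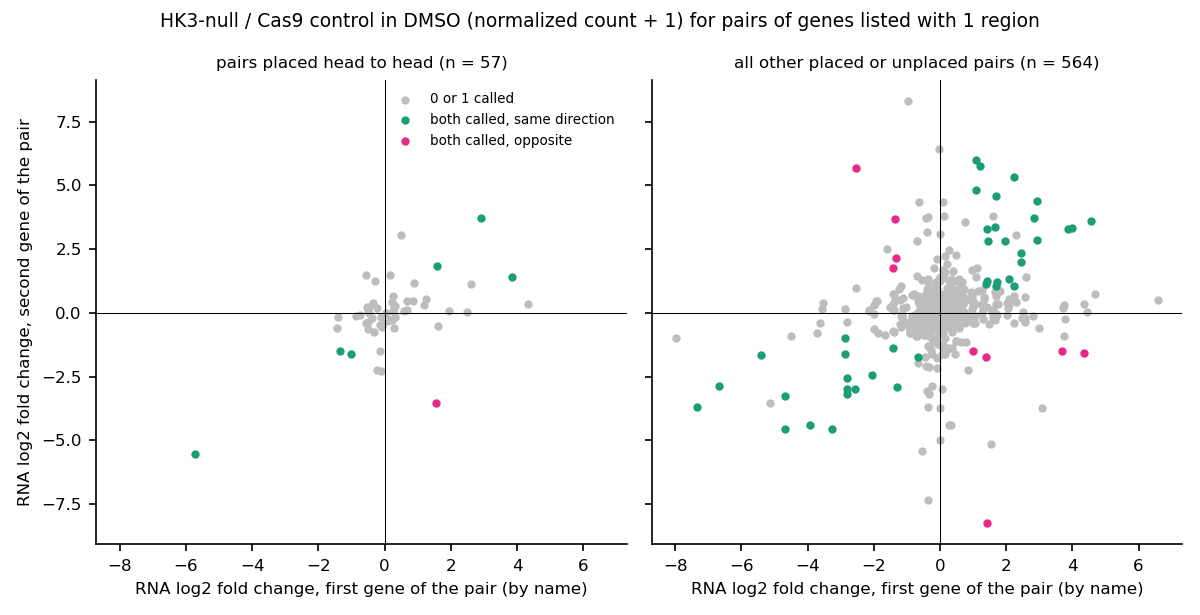
RNA log2 fold changes of HK3-null over Cas9 control in DMSO (normalized count + 1) for the 621 pairs of tested genes listed with 1 member region, 1 point per pair, split into 57 head-to-head pairs and the rest. Of the pairs with both genes called, 46 lie in the quadrants of equal sign (green) and 10 in those of opposite sign (pink).

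A head-to-head pair fell together. TP53TG1, a long non-coding RNA gene, and CROT, which encodes a peroxisomal carnitine acyltransferase, start on either side of the first sequence above. Their region at chr7:87345114-87345839 read 107 and 116 in Cas9 control and 7.26 and 7.0 in HK3-null DMSO libraries (-3.79 ± 0.35, adjusted p = 1.59e-11). TP53TG1 RNA was 47, 45 and 45 normalized counts in Cas9 control and 0 in all 3 HK3-null libraries, at least 15.2-fold lower against 3 counts per library (adjusted p = 7.71e-07), and CROT was 67, 72 and 60 against 1, 0 and 0 (adjusted p = 0.000462). In ATRA both genes were at 0 in all HK3-null libraries and between 63 and 100 in the Cas9 control ones.

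Zinc finger pairs rose together. The region between ZNF829 and ZNF568 at chr19:36916016-36916732 read 64.4 and 61.3 in Cas9 control and 249 and 219 in HK3-null (1.88 ± 0.29, adjusted p = 5.87e-07). ZNF829 RNA went from 60, 60 and 68 to 207, 243 and 225 normalized counts (1.84 ± 0.13) and ZNF568 from 45, 43 and 48 to 147, 127 and 141 (1.61 ± 0.14). At ZNF528 and its antisense partner ZNF528-AS1 the signal rose by 1.89 ± 0.34, with RNA changes of 2.95 ± 0.14 and 4.04 ± 0.26. At ZNF793 and ZNF793-AS1 the region was below the signal filter at 1.5 and 1.56 against 30.9 and 36.1, and RNA of ZNF793 rose from 10, 3 and 8 to 53, 46 and 55. The median log2 fold change of the 46 tested genes within 1 Mb of the ZNF829 and ZNF568 region was 0.21, below the changes of both genes.

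RNLS, which encodes renalase, and the lipase gene LIPJ overlap at their starts. Their region read 0 and 1.53 in Cas9 control and 29.1 and 23.5 in HK3-null DMSO libraries, and both genes were called higher, RNLS at 0, 0 and 1 against 24, 21 and 32 normalized counts (adjusted p = 0.00699) and LIPJ at 0 in all controls against 10, 2 and 12. The region at the start of the deubiquitinase gene YOD1, listed with PFKFB2, a regulator of glycolytic flux, read 5.07 and 1.30 against 29.6 and 29.4. YOD1 RNA rose by 3.33 ± 0.33 on the log2 scale and PFKFB2 went from 1, 0 and 0 to 16, 19 and 22 normalized counts. Genes that overlap, and sense and antisense partners, may share reads, since the strand setting of the counting is not given in the sources used here.

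Neighbours also moved together outside the promoters placed here. Between TNNI2, a troponin gene, and LSP1, a leukocyte actin-binding protein gene, the region at chr11:1850226-1851284 rose from 68.1 and 46.2 to 240 and 219 (2.01 ± 0.29, adjusted p = 1.86e-07). LSP1 RNA was 186, 204 and 214 in Cas9 control and 4909, 4705 and 4587 in HK3-null DMSO libraries (4.56 ± 0.07), and TNNI2 was 2, 1 and 2 against 26, 32 and 36 (4.29 ± 0.27). For APOBEC3C and APOBEC3D, genes of antiviral cytidine deaminases, the region at chr22:39013904-39014515 overlapped one end of APOBEC3C, for which no start site was used, and fell from 114 and 130 to 16.1 and 14. APOBEC3C RNA fell from 765, 743 and 808 to 20, 18 and 14 (-5.49 ± 0.14), and APOBEC3D stood at 3, 3 and 3 against 0, 1 and 0 and was called only with the filter on low values (adjusted p = 0.0139, and 0.106 without).

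In the keratin pair KRT16 and KRT17 the region fell by 3.37 on the log2 scale, KRT17 RNA went from 91, 88 and 83 to 4, 4 and 2, and KRT16 was at 14, 19 and 11 against 0 in all 3 HK3-null libraries, at least 4.89-fold lower. In the T cell receptor beta locus TRBV7-4, TRBV6-5 and TRBV6-6 were called lower together. TRBV6-5 was at 51, 32 and 38 against 1, 1 and 0, and its call was lost without any 1 of 4 of the 6 DMSO libraries (adjusted p 0.0588 to 0.104). These gene segments are near copies of each other, so their separate values are uncertain.

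In 9 members called genes moved in opposite directions, and in the 3 described first the gene whose promoter the region held was the one that followed it. SLC2A8 fell from 305, 287 and 308 normalized counts to 0 in all HK3-null DMSO libraries, at least 100-fold lower (adjusted p = 2.92e-08), while its neighbour GARNL3 rose from 43, 48 and 43 to 127, 112 and 122 (1.43 ± 0.16). CIART, a circadian repressor gene, rose from 3, 0 and 1 to 139, 95 and 77 with its region at chr1:150281801-150282674 (7.65 and 9.63 against 122 and 123), while C1orf54 went from 20, 20 and 17 to 1, 3 and 4. HAAO, an enzyme gene of the kynurenine pathway, rose from 0, 2 and 2 to 37, 49 and 39 (adjusted p = 0.0109, and 0.054 without the filter on low values), while MTA3, a subunit gene of a chromatin remodelling complex, fell from 220, 202 and 208 to 73, 86 and 55 (-1.58 ± 0.16).

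In other members of this kind no listed promoter was placed. Near the hematopoietic transcription factor gene GATA2 a region read 1.44 and 1.88 against 48.1 and 37.6. GATA2 RNA rose by 1.56 ± 0.19 and LOC90246, with 11, 10 and 22 against 0, 1 and 0 normalized counts, was called lower, while GATA2-AS1, in whose intron the region lies, went from 154, 129 and 156 to 4, 4 and 2 without passing (adjusted p = 0.0558). The SE of GATA2-AS1, 2.24, is from a fit that takes in its HK3-null ATRA values of 0, 2 and 0. It thus depends on how 0 is written, and the missing call does not mean an unchanged gene. The call of LOC90246 was lost without HK3-null DMSO replicate 1 or 3 (adjusted p = 0.0517 and 0.0505). At TBC1D8 the region read 5.53 and 5.39 against 98 and 65.7, TBC1D8 RNA rose by 2.17 ± 0.19 and LOC100506286 fell by 1.53 on the log2 scale. At TNFAIP8L2 the RNA rose by 1.75 ± 0.14 while that of the overlapping LYSMD1 fell by 1.44.

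In other members the listed genes changed by unequal amounts. ZNF132 rose from 1, 0 and 0 to 69, 153 and 162 normalized counts with the region before it, while ZNF324B, listed with the same region, had a log2 fold change of 0.52 ± 0.23 that did not pass (adjusted p = 0.0786). MORN4 fell from 31, 29 and 36 to 0, 2 and 0, while PI4K2A, a phosphatidylinositol kinase gene, had -0.91 ± 0.18, under the 2-fold limit. ZNF555 rose from 3, 1 and 0 to 91, 105 and 128, a call lost without Cas9 control DMSO replicate 3 (adjusted p = 0.0617) or without the filter on low values (0.0808), while its neighbour ZNF554 rose by 1.24 ± 0.20.

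Gene families were counted by lists that were written with earlier results of these data known. Beside the counts below, 11.1% of all genes tested were called higher and 8.21% lower in DMSO. For the listed genes these shares were 18.5% and 11.6%. In ATRA 11.4% and 9.93% of all genes were called, and of all regions tested in DMSO 42.7% and 43.9%. Genes with numbered zinc finger names were the largest group, with 75 genes listed with 61 members. Chosen by name, they include the antisense genes ZNF528-AS1, ZNF571-AS1 and ZNF793-AS1 and the pseudogene ZNF826P. They also include ZFP36 and ZFP36L2, whose place in the family was not checked. All of these except ZFP36L2 were called higher in DMSO. In DMSO 34 of 51 tested members were higher and 16 lower, and 30 of 61 tested genes rose and 3 fell, with a median RNA log2 fold change of 0.92 against 0.0026 over all genes tested. In ATRA 27 rose and 3 fell. Some rises, such as ZNF85 and ZNF486 with at most 1 normalized count in every Cas9 control library, passed the RNA filter only through HK3-null. The falls in DMSO were ZNF22, ZNF30 and ZNF511, which went from 2682 to 2888, 74 to 89 and 2672 to 3051 normalized counts in the Cas9 control libraries to at most 1026, 2 and 953.

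HOX genes, which set positional identity and are active in blood progenitors, were listed with 13 members, of which 2 were higher and 9 lower of 11 tested. At chr12:53986172-53986545, in an exon of HOXC10, the signal fell from 59.8 and 60.3 to 6.25 and 4.25. HOXC10 RNA was 99, 90 and 119 normalized counts in Cas9 control and 0 in all HK3-null DMSO libraries, at least 34.2-fold lower, and HOXC11 was 6, 6 and 7 against 0 (at least 2.11-fold lower). Of 6 tested HOX genes 4 fell and 0 rose in DMSO by limma, the others being HOXA5 and HOXC6, the latter at 2, 2 and 4 against 0, a call set by how 0 is written, while HOXA4 was higher in HK3-null in ATRA, at 85, 81 and 60 against 0, 1 and 0. The median over the 6 genes was -2.35 on normalized count + 1.

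Interferon-stimulated genes, which are induced by antiviral signalling, were listed with 24 members, of which 4 were higher and 13 lower of 19 tested. Of 14 tested genes 2 rose and 6 fell in DMSO, and 1 was higher and 9 lower in ATRA. The list also holds TRIM2, TRIM3 and IFITM10, which carry the family names but whose induction by interferon was not checked. TRIM3 is among the 6 falls, at 21, 20 and 12 against 9, 10 and 6 normalized counts. OAS1 and OAS3, synthetases that activate RNase L, fell from 181, 165 and 231 to 6, 6 and 7 and from 501, 480 and 582 to 14, 16 and 6 normalized counts. IFIT1, which binds viral RNA, fell from 97, 78 and 92 to 8, 14 and 7. The region in an exon of IFIT1, listed with IFIT1B, was not called in DMSO (-0.27 ± 0.30). In ATRA that region read 117 and 122 in HK3-null against 59.5 and 43.3 in Cas9 control. IFIT1 RNA was lower in HK3-null there, at 1, 2 and 1 against 116, 81 and 101. The members that rose were GBP2, a guanylate-binding protein gene (13, 12 and 12 against 89, 103 and 90), and the transcription factor gene IRF8 (106, 86 and 103 against 270, 261 and 300). The median over the 14 genes was -0.93 on normalized count + 1. IRF8 turned in ATRA, where it stood at 110, 98 and 111 in Cas9 control and 28, 17 and 48 in HK3-null.

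Lists of myeloid genes were counted one by one. Of 6 tested granule protein genes 3 rose and 0 fell in DMSO by limma, namely BPI, a bactericidal protein gene (107, 80 and 108 against 6250, 6206 and 6270 normalized counts), CHI3L1 and the lysosomal protease gene CTSD. AZU1 and PRTN3, which encode primary granule proteins and share a region that fell by 1.02 on the log2 scale, had RNA changes of -0.39 and 0.09. The median over the 6 genes was 0.59 on the log2 scale. Of 6 tested genes in the list of immunoglobulin and lectin family receptors 4 rose and 0 fell by limma, with a median of 2.17. CLEC16A is in this list by its name. FCGR3B, at 0 in all Cas9 control libraries, passed the RNA filter only through HK3-null. SIRPB1 rose from 279, 237 and 275 to 1558, 1452 and 1331 and SIRPD from 8, 10 and 7 to 44, 39 and 59, while the region in an intron of SIRPB1 did not pass (-0.75 ± 0.43). Of 4 chemokine and interleukin genes 3 rose, among them CXCL8, the neutrophil chemoattractant gene (135, 110 and 82 against 1774, 1351 and 721).

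Among S100 calcium-binding protein genes S100A4 and S100A6 rose by 1.40 ± 0.06 and 1.15 ± 0.12, with the region in an intron of S100A5 at 7.17 and 8.83 against 46.2 and 36.2, and S100A10 fell. Of 5 death receptor, TNF family and caspase genes TNFRSF13C, TNFRSF6B and BIRC7 were called higher, the last at 0 in all Cas9 control and at 2, 1 and 1 in HK3-null DMSO libraries, so that its call is set by how 0 is written. In the BCL2 family BBC3, a BH3-only death gene, rose from 46, 36 and 16 to 213, 227 and 134. C3AR1, an anaphylatoxin receptor gene, and the integrin gene ITGA2B rose, with 1 and 4 genes tested in their lists. The list of ribosomal protein genes, with 12 tested genes, also holds the kinase genes RPS6KA1 and RPS6KB2. Its median was -0.041. By limma 0 of these 12 genes and 0 of 3 genes of the hexokinase and glycolysis list were called. Of 2 tested genes of the SLC2A list SLC2A8 fell. The other, SLC2A4RG, is named after a transporter gene but does not encode a transporter, and it was not called. The 2 tested retinoid genes, RARB and RXRA, were not called between the genotypes in DMSO.

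Among 10 markers of cell types that the culture should lack, 8 stayed at or below 28 normalized counts in every library. PECAM1, an endothelial marker that myeloid cells also carry, was at 44 to 58 in Cas9 control and 480 to 556 in HK3-null DMSO libraries and moved with the leukocyte genes, and COL1A1 was at 7 to 321 and 9 to 10. The value of 321 was from Cas9 control DMSO replicate 1, which stood apart, with 16750 genes detected where the other 11 libraries had 15031 to 15801, and ITGA3 at 212 against 3 and 3. Without it 236 listed genes were called higher and 130 lower in DMSO, and the 13 members with all genes lower became 11. The summed list ranged from 66 to 389 and from 508 to 590 in these groups and from 166 to 240 and 1274 to 1511 in ATRA, with MS4A1 at 0 throughout. The promyelocytic markers MPO, ELANE, AZU1 and PRTN3 were high in all 12 libraries, MPO at 440811 or more. The part of other cells in these changes was not tested.

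Fewer members were called for ATRA than for the genotype. The rows were chosen in part by their genotype difference in ATRA, which favours genotype calls, so these counts do not rank the effects. The ATRA libraries took part in choosing the rows, and the comparison within Cas9 control shares its DMSO libraries with the genotype comparison. In Cas9 control cells 28 members were higher and 174 lower with ATRA (2.57% and 16%), where 2.54% and 15.6% of all tested regions were called. In HK3-null cells 61 were higher and 122 lower (5.61% and 11.2%), where 5.04% and 11.8% were called, so the members followed the background in both lines. Of the members called higher 12 were called in both lines (42.9% of those in Cas9 control and 19.7% of those in HK3-null), and of those called lower 64 (36.8% and 52.5%). The median log2 difference of all tested regions was -0.30 in Cas9 control and -0.17 in HK3-null.

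Single libraries weighed on the Cas9 control counts. ATRA replicate 2 had a median member signal of 21.5, against 26.4 to 32.9 in the other 7. In place of 174, the members called lower with ATRA numbered 75 without it, 64 without DMSO replicate 2 and 111 without DMSO replicate 1, and the 28 called higher numbered 10 without ATRA replicate 1, 15 without DMSO replicate 1 and 14 without DMSO replicate 2. In HK3-null the 61 rises numbered 34, 29 and 33 without ATRA replicate 1, DMSO replicate 1 and DMSO replicate 2, and the 122 falls 57 and 55 without DMSO replicate 1 and DMSO replicate 2. After quantile normalization between libraries the counts in Cas9 control were 80 higher and 131 lower, so that 37.9% of the calls were rises in place of 13.9%.

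The sequences below are the central 200 bases of 4 of the members with the largest ATRA changes, on GRCh38, shown with matches on either strand in capitals to AGGTCA (a core hexamer of nuclear receptors, to which retinoic acid receptors belong), TGANTCA (the AP-1 site, with N for any base), GGAAGT and CCAAT. The first pair rose with ATRA in both lines and the second pair fell.
LOC440867 and LOC105374780, chr2:65450521-65450720, plus strand: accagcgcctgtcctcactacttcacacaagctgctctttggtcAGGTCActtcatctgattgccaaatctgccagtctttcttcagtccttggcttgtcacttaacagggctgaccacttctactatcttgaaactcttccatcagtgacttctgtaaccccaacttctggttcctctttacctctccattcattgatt
CFAP45 and MIR4259, chr1:159896283-159896482, plus strand: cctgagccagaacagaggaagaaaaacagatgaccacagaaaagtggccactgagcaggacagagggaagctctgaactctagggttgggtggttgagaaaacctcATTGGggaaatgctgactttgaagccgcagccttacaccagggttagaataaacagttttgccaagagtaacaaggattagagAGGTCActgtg
LOC105376935 and EDEM1, chr3:5194839-5195038, plus strand: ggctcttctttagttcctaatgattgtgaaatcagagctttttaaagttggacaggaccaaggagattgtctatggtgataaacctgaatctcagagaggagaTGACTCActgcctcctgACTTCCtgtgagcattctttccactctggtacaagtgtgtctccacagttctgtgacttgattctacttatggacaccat
ADRBK2 and MYO18B, chr22:25736547-25736746, plus strand: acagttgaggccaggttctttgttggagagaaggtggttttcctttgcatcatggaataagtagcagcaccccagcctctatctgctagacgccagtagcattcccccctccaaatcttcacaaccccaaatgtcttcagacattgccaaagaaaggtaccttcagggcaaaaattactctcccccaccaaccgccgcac

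Both rising regions shown held AGGTCA and the region of LOC105376935 and EDEM1 held TGANTCA, while that of ADRBK2 and MYO18B held none of the 8 motifs. The centre of the region listing IFITM10 and CTSD, the largest ATRA rise among members in HK3-null, also held none, and nor did those of TMPRSS9, TIMM13 and LMNB2 and of LOC105374593 and LOC102724008, which fell. Over all members AGGTCA was in 37.7% of the 61 regions that rose with ATRA in HK3-null and in 28.6% of the 28 that rose in Cas9 control, against 12.3% of all 8286 region centres of this length. TGANTCA was in 39.7% of the 174 that fell with ATRA in Cas9 control and in 22.1% of the 122 that fell in HK3-null, against 14.6% of all regions. Between the genotypes in DMSO TGANTCA was in 22.8% of members called higher and 4.60% of those called lower, and among members without a listed promoter the shares were 28.1% and 5.28%. GGGCGG was in 53.8% of members with a listed promoter and in 19% of those without, whose median GC contents were 66.2% and 54%. These shares are descriptions, and no factor's binding was measured.

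**Figure D5:**
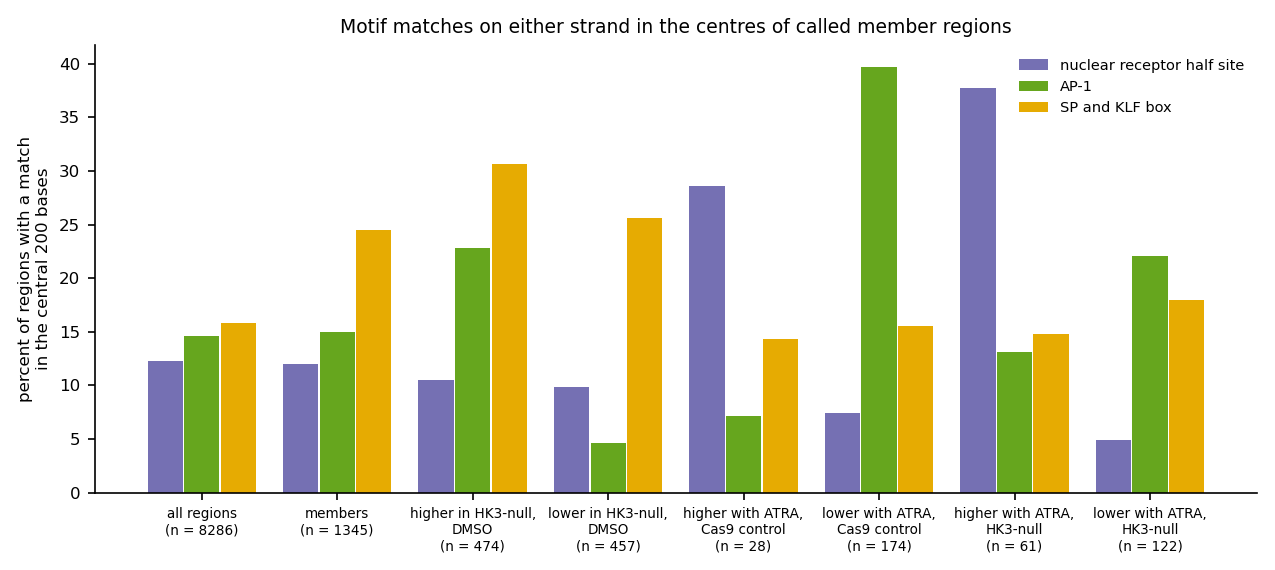
Percent of regions with AGGTCA, with TGANTCA or with GGGCGG on either strand in the central 200 bases, for all regions, all members and the members called in each direction. The bar for AGGTCA reaches 37.7% among members that rose with ATRA in HK3-null, and the bar for TGANTCA 39.7% among those that fell in Cas9 control.

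The region of LOC440867 and LOC105374780 at chr2:65450407-65450833 rose from 4.25 and 3.0 to 25.2 and 20.8 in Cas9 control (2.38 ± 0.43, adjusted p = 0.000124) and from 5.15 and 4.31 to 53.1 and 61.6 in HK3-null (3.35 ± 0.43, adjusted p = 5.07e-07). The region in an intron of CFAP45 rose from 2.13 and 1.87 to 12.5 and 9.0 and from 13.8 and 4.67 to 71.7 and 78.6. At chr11:1749096-1751428, in an intron of IFITM10 and listed with CTSD, the signal went from 5.52 and 3.38 to 15.1 and 8.67 in Cas9 control and from 4.2 and 5.07 to 117 and 93.6 in HK3-null (4.23 ± 0.44, adjusted p = 9.08e-09). CTSD RNA rose with ATRA in both lines, from 7713, 6975 and 7689 to 27729, 26913 and 30927 normalized counts in Cas9 control and from 16451, 16068 and 14862 to 158278, 162525 and 159622 in HK3-null. Its rise was larger by 1.41 ± 0.09 on the log2 scale in HK3-null (interaction, adjusted p = 4.94e-06).

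A region in an exon of OAS2, listed with OAS3, rose with ATRA in Cas9 control from 15.5 and 19.9 to 113 and 52.5 (2.07 ± 0.48, adjusted p = 0.00176), a call lost without Cas9 control ATRA replicate 1 (0.0739), and read 3.64 and 2.0 and then 2.64 and 5.27 in HK3-null. OAS3 RNA rose with ATRA in both lines, from 501, 480 and 582 to 1525, 1550 and 1594 and from 14, 16 and 6 to 114, 102 and 136. The region in an intron of CLNK rose from 16.4 and 8.57 to 60.8 and 42.5 in Cas9 control, a call lost without Cas9 control DMSO replicate 2 (adjusted p = 0.101).

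Falls with ATRA also passed in both lines. The region of ADRBK2 and MYO18B at chr22:25736262-25737030 fell from 88.2 and 103 to 18.1 and 9.75 in Cas9 control and from 22.8 and 17.3 to 1.75 and 2.04 in HK3-null (-2.75 ± 0.41 and -2.85 ± 0.41). The region in an intron of EDEM1, a gene of endoplasmic reticulum protein degradation, fell from 44.7 and 45.6 to 7.91 and 4.46 in Cas9 control (-2.73 ± 0.35), while EDEM1 RNA changed by 0.09 on the log2 scale. The region in an exon of ZSWIM1, listed also with CTSA, fell by 2.81 in Cas9 control and by 1.24 in HK3-null, and CTSA, a lysosomal protease gene, had RNA changes of 0.31 and 0.61. In the region of TMPRSS9, TIMM13 and LMNB2 the signal fell by 2.26 in Cas9 control and fell by 3.01 in HK3-null on the log2 scale, with TMPRSS9 RNA lower with ATRA in both lines.

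In RNA more listed genes were called higher than lower with ATRA, and the same lean was present among all genes tested. In Cas9 control 124 were higher and 44 lower of 1224 (10.1% and 3.59%), where 6.84% and 2.78% of all genes were called. In HK3-null 129 were higher and 93 lower (10.5% and 7.6%), where 8.06% and 6.05% were called. Most called genes of rising regions rose. Of the 28 members that rose with ATRA in Cas9 control 8 had all called genes higher and 0 had them lower by limma, and of the 61 in HK3-null 19 had them higher, 2 lower and 1 both. Of the 174 falling regions in Cas9 control 18 had all called genes lower and 21 higher, and of the 122 in HK3-null 25 had them lower and 8 higher. The difference between the lines in this split was not tested. Of the 174 falling members 10 held a listed promoter.

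Neighbours moved together with ATRA in few members. Among the 403 members with at least 2 tested genes all were higher in 8 and lower in 1 in Cas9 control, with none in opposite directions, and all were higher in 10, lower in 7 and opposite in 7 in HK3-null. Same-sign shares of the 621 pairs were 60.5% and 60.2%, against 56.2% and 57.3% of near unlisted pairs. The interaction of genotype and treatment was called for the listed genes as 76 with the more positive ATRA effect in HK3-null and 82 with the more negative one, where 4.48% and 4.64% of all genes were called. With the replicate number as a block, since RNA libraries of the same number deviated together, these counts were 161 and 170.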

How the data were processed

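Members and gene lists were chosen with earlier results of these data known. RNAseq: the authors mapped reads to GRCh38 and deposited log2 values, 2 to which power is a whole normalized count, with 0 written as log2 of 0.001. How RNA reads were aligned and counted is not stated in these sources, the methods name RPKM although the values carry no scaling by gene length that could be seen, and the submitters' processing notes name DESeq2 and MACS2. Totals were 29053838 to 31548189 normalized counts per library, and rows without a gene name, at most 0.00926% of counts, were left out. ATACseq: the authors aligned reads with BWA, removed duplicates, sampled every library down to the smallest, called peaks, merged overlapping ones and deposited a signal (fragment density) per merged region, so the read depth is unknown here.

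Values were fitted in R 4.3.3 with limma 3.58.1 (lmFit, eBayes with trend), 1 mean per group over all libraries of an assay. Regions were log2(signal + 1) with a mean above 17.1 (the 25th percentile), with calls at a fold of at least 1.5 and adjusted p under 0.05. Genes needed a group mean log2 value above 3 and were called at a fold of at least 2, and interactions at the adjusted p alone. Adjusted p-values are Benjamini-Hochberg over all features. Normalized counts are not raw reads, so no count model was used. The scripts were tested on simulated data. Fold bounds set 3 counts in each library at 0. The methods call the replicates biological without saying more, and p-values measure only the spread between these libraries.

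RNA libraries with the same number deviated together (correlations of 0.18 to 0.63 over 18 pairs), while ATACseq libraries did not (-0.21 to 0.05). The main fits took no account of this pairing, and it was used only in the alternative with a replicate block. Promoter sequences and start sites were from RefSeq (GRCh38.p14), and exons and introns from GENCODE on the same build. Coordinates of regions are as deposited. Named regions were, among called members without overlap, the 5 largest rises and falls between the genotypes in DMSO and the 3 with ATRA in each line, the 3 largest genotype differences in ATRA, the 6 regions per class (all genes higher, all lower, opposite) with the largest smallest RNA change, and for each list at most the 2 regions of largest mean signal that name 2 of its genes. Other list genes were named after their values were seen. Alternatives were pseudocounts, filters, normalization, blocks and leaving out each library. The result of 1 further gene list is not reported here.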

Additional observations from a re-analysis of the deposited data

Results flagged for a closer look

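In 14 genes listed with the named regions the ATRA effect differed between the genotypes by the interaction term of limma (adjusted p under 0.05, n = 3 per group). The fit was the main one, without a replicate block. A positive value means the more positive ATRA effect in HK3-null on the log2 scale. The values were larger in HK3-null for CTSD (1.41, adjusted p = 4.94e-06), TBC1D8 (1.36, adjusted p = 0.00806), OAS3 (1.82, adjusted p = 0.0189), SIRPB1 (0.929, adjusted p = 0.000502), CFLAR (0.596, adjusted p = 0.00151), GSTM4 (0.502, adjusted p = 0.00893) and CTSA (0.307, adjusted p = 0.017). TBC1D8 had ATRA effects of -0.51 in Cas9 control and 0.85 in HK3-null. The values were smaller for LSP1 (-2.06, adjusted p = 5.17e-07), TNNI2 (-2.58, adjusted p = 0.00142), IFIT1 (-3.02, adjusted p = 0.00328), CCL1 (-2.33, adjusted p = 0.0311), GARNL3 (-1.05, adjusted p = 0.0144) and S100A4 (-0.89, adjusted p = 0.000134). TRBV6-6 had 10.7 (adjusted p = 0.000494), a value set by how 0 is written, since it was at 0 in all HK3-null DMSO libraries and at 1, 1 and 4 normalized counts with ATRA.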

How the results depend on the processing

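Among counts and medians recomputed under the alternatives, 345 values stayed within 1.5 times or 1 SD of the value reported and 25 did not. For members called with ATRA in Cas9 control, rises numbered 80 after quantile normalization and 65 with each library centred on its median (an alternative chosen after seeing the data), against 28. Leaving out 1 ATACseq library at a time gave 10 to 30 rises and 64 to 236 falls in Cas9 control and 29 to 64 rises and 55 to 140 falls in HK3-null, and fewer samples then estimate the spread. A pseudocount of 5 lowered the median absolute log2 difference between the genotypes in ATRA to 1.54. The thresholds of the study's methods (unadjusted p under 0.05, fold 1.5) gave 252 listed genes lower between the genotypes in ATRA, 201 higher and 107 lower with ATRA in Cas9 control and 241 higher and 177 lower in HK3-null, as looser limits must. With the replicate block the RNA interaction was called for 161 and 170 genes, and no other count moved by over 1.5 times under it. The ATACseq numbers did not pair the libraries, and with the block 26 members rose and 163 fell with ATRA in Cas9 control, or 28 and 177 with crossed numbers. At a fold of 1.5 all genes were higher in 32 members and opposite in 21, and 66 regions had all called genes the other way. Without pairs of the same family 6 members had all genes lower, and without a filter on low values the same-sign share of pairs was 51.5%. Of the values of named regions and genes 1119 kept their call and direction and 15 lost the call, with the lost calls given beside the genes or due to the filter on low values. No cause of these changes was tested beyond what the settings themselves do. The 2 ATACseq libraries per group limit the precision.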
